A study of Mus musculus with 2 samples.

Results

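The clustered histone genes are the linker histone (H1) and core histone (H2A, H2B, H3 and H4) genes that lie in dense groups in the mouse genome, here every gene whose symbol begins with Hist1h, Hist2h, Hist3h or Hist4h. The files list 67 such genes among 32285, and the 61 with at least 20 unique molecular identifiers (UMIs, each counting 1 captured RNA molecule) over both libraries were described. They comprise 6 linker genes and 55 core genes, of which 14 encode H2A, 16 H2B, 12 H3 and 13 H4. In all, 49 are Hist1h genes on chromosome 13, 9 are Hist2h genes on chromosome 3, 2 are Hist3h genes on chromosome 11 and 1 is Hist4h4 on chromosome 6. Just inside the minimum were Hist1h1t with 20 UMIs, Hist1h3h with 26 and Hist1h4m with 28. Just outside it were Hist1h2ao with 14, Hist1h2ah with 12, Hist2h2aa2 with 4 and Hist1h2bq with 1, and Hist1h2ba and Hist1h2aa had 0. The data are single-cell RNA-seq of the 4th mammary gland of virgin female C57BL/6 mice aged 6 to 8 weeks. There was 1 library of Gpm6a-deleted (KO) and 1 of wild-type (WT) cells, each from sorted cells that excluded the dye DAPI, of 3 littermates per genotype. The labels do not say whether the littermates were pooled, in which cells Gpm6a was deleted or by which allele. With 1 library per genotype, every difference between KO and WT lacks a replicate check, no test was made, and intervals cover counting error only.

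Core histones form the protein spool around which DNA is wound into nucleosomes, and linker histones bind where the DNA enters and leaves the spool. A cell that copies its DNA needs a new set of histones at once, so most clustered genes are switched on in S phase and their mRNAs are removed when DNA synthesis ends. These mRNAs are unusual: they end in a conserved stem-loop, bound by the protein Slbp, in place of a poly(A) tail. Some clustered genes also give polyadenylated transcripts, which have been seen in differentiated cells. The libraries were built from polyadenylated RNA, so the levels here are those of the captured molecules, not of all histone mRNA. In the virgin gland, division is known mainly from the luminal and basal epithelium of ducts and end buds.

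The stem-loop was searched as a 16-base hairpin in the annotated 3′ end of each gene, in GENCODE M21 transcripts on GRCm38. It was present in 42 of the 61 genes, in 6 variants, shown here because the variants divide by histone family. Capitals mark the 6-base arms of the stem, which pair over their full length in every variant, and lower case marks the 4-base loop. The pattern searched itself fixed most bases of the arms and of the loop, so the pairing and the loop are largely set by the search.

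Variant of 24 H1, H2A, H2B and H3 genes, with Hist1h1c, Hist1h1e and Hist1h2ae: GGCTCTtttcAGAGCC
Variant of 7 H4 genes, with Hist1h4d: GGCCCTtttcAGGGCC
Variant of 6 H1, H2B and H3 genes, with Hist1h3c: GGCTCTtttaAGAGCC
Variant of 2 H4 genes, with Hist1h4i: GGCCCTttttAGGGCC
Variant of 2 H4 genes, with Hist1h4b: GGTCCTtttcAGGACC
Variant of 1 H2A gene, Hist2h2ac: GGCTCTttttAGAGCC

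The 3 variants whose arms begin GGCCC or GGTCC were found in H4 genes, and those whose arms begin GGCTC were found in the other families. The 19 genes without a match included Hist1h1b and Hist1h2bc. For 12 of the 19 the annotation holds at most 1 base of 3′ UTR, so the hairpin could not have been found there, and Hist1h1b, with 0 bases, was among these.

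The promoters of 55 members were available from RefSeq (GRCm38.p6) as 250 bases before to 50 bases after the start. Those of 3 linker genes and of a core gene are shown because these genes, with many UMIs, run from the steepest difference between dividing and non-dividing cells (Hist1h1b) to a small one before thinning (Hist1h1c). Capitals mark the letters searched on both strands: the H1 box AAACACA, the CCAAT box CCAAT, the TATA box TATAAA and the octamer ATTTGCAT, each with its reverse complement.

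Hist1h1b promoter, chr13:21780576-21780875, minus strand: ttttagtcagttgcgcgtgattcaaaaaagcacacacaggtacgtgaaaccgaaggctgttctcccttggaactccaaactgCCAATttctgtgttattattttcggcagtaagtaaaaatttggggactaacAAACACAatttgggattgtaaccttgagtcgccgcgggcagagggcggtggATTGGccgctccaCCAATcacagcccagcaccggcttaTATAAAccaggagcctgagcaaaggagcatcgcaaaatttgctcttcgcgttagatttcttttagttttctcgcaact
Hist1h1c promoter, chr13:23738557-23738856, plus strand: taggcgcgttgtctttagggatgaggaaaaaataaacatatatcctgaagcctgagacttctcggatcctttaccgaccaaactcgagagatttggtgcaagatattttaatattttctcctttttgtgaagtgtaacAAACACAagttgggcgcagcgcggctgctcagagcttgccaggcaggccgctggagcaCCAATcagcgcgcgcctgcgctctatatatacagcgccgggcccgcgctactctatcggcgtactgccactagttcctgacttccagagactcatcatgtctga
Hist1h1e promoter, chr13:23622509-23622808, minus strand: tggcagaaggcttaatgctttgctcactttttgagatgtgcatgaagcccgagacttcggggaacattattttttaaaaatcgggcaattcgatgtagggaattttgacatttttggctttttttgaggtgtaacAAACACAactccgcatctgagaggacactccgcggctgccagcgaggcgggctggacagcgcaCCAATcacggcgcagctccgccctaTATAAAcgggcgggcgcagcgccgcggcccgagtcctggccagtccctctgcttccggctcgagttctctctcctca
Hist1h2ae promoter, chr13:23571171-23571470, minus strand: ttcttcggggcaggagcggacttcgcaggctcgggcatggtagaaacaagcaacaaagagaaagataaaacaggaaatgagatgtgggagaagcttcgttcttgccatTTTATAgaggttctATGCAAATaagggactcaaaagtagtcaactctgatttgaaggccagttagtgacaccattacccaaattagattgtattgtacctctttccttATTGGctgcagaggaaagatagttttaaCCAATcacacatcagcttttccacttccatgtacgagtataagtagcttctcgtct

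The H1 box was found in 5 of the 6 linker promoters, all but that of Hist1h1a, against 7.14% of 27025 promoters of the same length. It was also found in 1 of 13 H2A and 1 of 14 H2B promoters, and in 0 of 10 H3 and 0 of 12 H4 promoters. CCAAT was found in all 6 linker, 13 H2A, 14 H2B and 10 H3 promoters but in 3 of 12 H4 promoters, against 37.9% of all promoters. The octamer was found in 5 of 13 H2A and 5 of 14 H2B promoters and in 0 of the other members' promoters, against 1.75% of all. Some H2A and H2B windows overlap on opposite strands, so the same match can count for both families. The TATA box and octamer marked in the Hist1h2ae window, for example, also lie in the window of Hist1h2bg. TATAAA was found in 4 of 6 linker promoters and 32 of the 55, against 14.2% of all. Hist1h1c had the H1 and CCAAT boxes but no TATAAA in this window, and Hist1h1b had all 3 motifs. These matches describe letters in a window and are not evidence of binding.

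The KO library held 11442 barcodes and 139757797 UMIs and the WT library 12291 barcodes and 160026788 UMIs, and 33 barcode sequences occurred in both libraries. After filtering and removal of 435 KO (3.99%) and 461 WT (4.20%) predicted doublets, 10472 KO and 10523 WT cells remained, with medians of 9521 and 11086 UMIs. The deleted gene, Gpm6a, had 31 UMIs in the KO library (0.222 counts per 1000000 UMIs, CPM) and 289 in the WT library (1.81 CPM). Of the WT UMIs in cells, 65.8% lay in a cluster of 31 mesothelial-like cells that had 0 KO cells, so this check of the labels rests mostly on that cluster. Cells were grouped without the clustered histone and cell-cycle genes into 35 clusters. Of these, 26 were named from markers and 9, with 367 KO and 1581 WT cells, stayed unnamed. A hormone-sensing luminal cluster had the immune gene Ido1 among its leading genes, and a fibroblast cluster of 180 cells was led by Ifit1, Ifit3 and Isg15. Keratinocyte-like cells numbered 0 in KO and 299 in WT, and with 4 other clusters of nearly 1 library they are a difference in which cells each library holds.

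Dividing cells were defined as those with at least 1 UMI of both Mki67, a marker of cycling nuclei, and Top2a, a DNA topoisomerase of S phase to mitosis. There were 343 in KO (3.28%, exact Clopper-Pearson 95% interval 2.94 to 3.63) and 411 in WT (3.91%, 3.54 to 4.29). Non-dividing cells, with 0 UMIs of either gene, numbered 9362 in KO and 9277 in WT, and 767 KO and 835 WT cells had 1 gene without the other. Dividing cells were deeper, with medians of 24558 (KO) and 31545 (WT) UMIs, against 9059 and 10518 in non-dividing cells. When each cell was thinned to 2000 UMIs, which left out 370 KO and 788 WT cells, 80 KO cells (0.792%) and 105 WT cells (1.08%) were dividing. Detection of the 2 marker genes thus depended on depth, and some cells counted as non-dividing may be dividing cells in which they were missed. Dividing and non-dividing cells also differed in cell class. Fibroblasts were 5 of 343 dividing and 4538 of 9362 non-dividing KO cells, and 15 of 411 and 3702 of 9277 WT cells. Ratios of dividing over non-dividing cells that pool all classes thus mix division with class.

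Clustered histone genes were higher in dividing cells as a group, in linker and core genes and in both libraries. Levels are summed UMIs in CPM, with exact Poisson 95% intervals where given, and log2 ratios carry 1 CPM added to both sides. The members together reached 1621 CPM in dividing against 409 in non-dividing KO cells, and 1673 against 312 in WT cells. Of 61 members, 44 were at least 2-fold higher in dividing KO cells, where 6.41% of 18882 genes were, and 41 in dividing WT cells, where 6.94% were. Both libraries shared 40 of them, 40 of 44 in KO and 40 of 41 in WT. With 5 CPM added in place of 1 CPM, 27 members were called in each library. Neither this count nor the overlap between libraries has a value over all genes beside it. No member was at least 2-fold lower in dividing cells of either library, where 9.54% of genes were lower in KO and 7.81% in WT. The median log2 ratio of members was 1.93 in KO and 1.78 in WT, against -0.05 and 0.01 over all genes. A dividing cell held UMIs of a median of 14 different members in KO and 10 in WT, against 1 in non-dividing cells of each library. After thinning, these medians were 4 and 2 in dividing cells, against 0 in non-dividing cells.

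**Figure D1:**
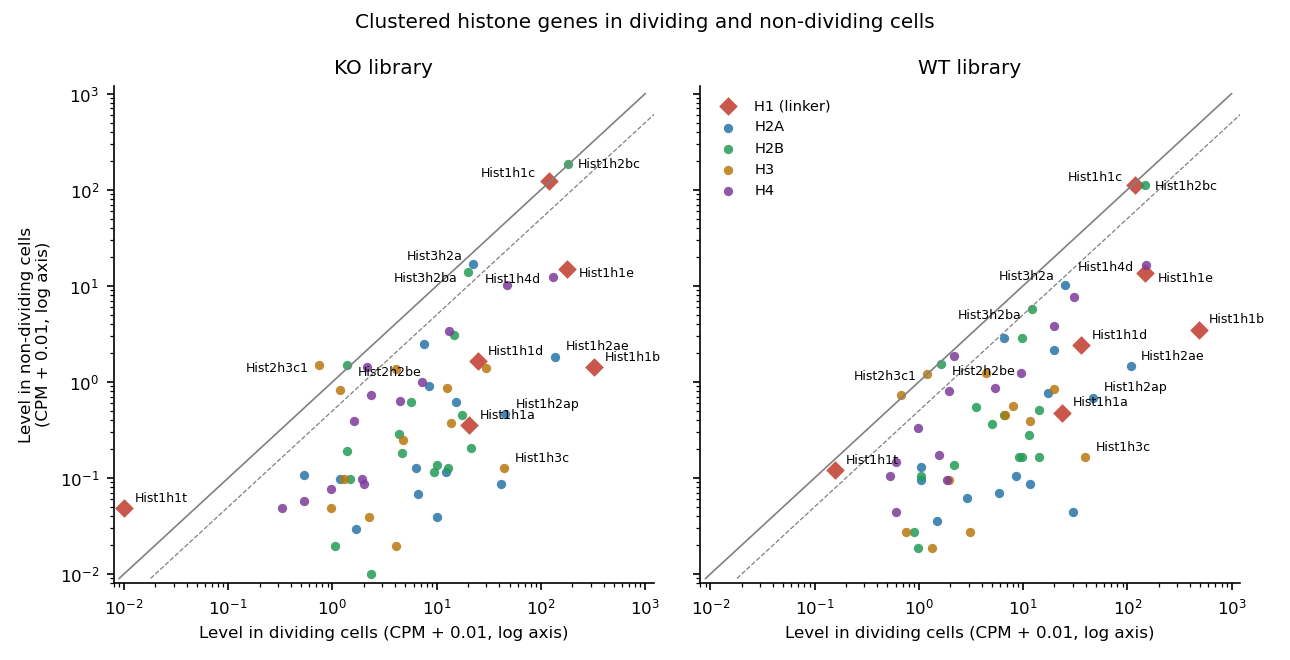
Level of each of the 61 clustered histone genes in dividing cells (horizontal axis) and in non-dividing cells (vertical axis), as CPM + 0.01 on log axes, in the KO library (left) and the WT library (right). Diamonds are linker genes and circles core genes coloured by family, the solid line marks equal levels and the dashed line 2-fold higher in dividing cells. Most members lie to the right of the dashed line, while Hist1h1c and Hist1h2bc, at over 110 CPM in every group, lie near the solid line.

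Linker genes other than Hist1h1c and Hist1h1t were higher together in dividing cells. Summed linker level was 664 CPM in dividing against 141 in non-dividing KO cells and 809 against 131 in WT cells, log2 ratios of 2.23 in KO and 2.62 in WT. Without Hist1h1c it was 545 CPM in dividing against 18.5 in non-dividing KO cells and 691 against 19.99 in WT cells, log2 ratios of 4.81 in KO and 5.04 in WT. Of the 6 linker members, 4 were at least 2-fold higher in dividing cells in each library, against 6.41% of all genes in KO and 6.94% in WT.

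Hist1h1b (H1f5; chr13:21779883-21780625, minus strand, 1 exon, GRCm38), a linker subtype known from dividing cells, had the highest ratio of any member. Its level was 325 CPM (313 to 336) in dividing and 1.43 CPM (1.21 to 1.68) in non-dividing KO cells. In WT it was 483 CPM (471 to 495) in dividing and 3.49 CPM (3.16 to 3.85) in non-dividing cells. The log2 ratios were 7.07 in KO and 6.75 in WT, and the gene ranked 4 in KO and 6 in WT among 18882 genes by this ratio. Shares of UMIs between genes depend on how each 3′ end is captured and are not per length. Hist1h1b supplied 48.9% of linker UMIs in dividing KO cells and 59.7% in dividing WT cells, against 1.01% in non-dividing KO cells and 2.67% in non-dividing WT cells. After thinning, its level was 675 CPM in dividing against 4.94 in non-dividing KO cells, and 824 against 6.52 in WT cells.

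Hist1h1e (H1f4; chr13:23620629-23622558, minus strand), a widely expressed subtype, was 176 CPM in dividing against 14.99 in non-dividing KO cells and 148 against 13.5 in WT cells. Hist1h1d (H1f3), another somatic subtype, was 24.6 CPM in dividing against 1.65 in non-dividing KO cells and 36.3 against 2.39 in WT cells. Hist1h1a (H1f1), also somatic, was 20.6 CPM in dividing against 0.347 in non-dividing KO cells and 23.6 against 0.470 in WT cells. All 3 kept the order of dividing above non-dividing in each library, with log2 ratios from 3.27 to 4.07. Reads of Hist1h1e are less certain in origin, since its annotated exons overlap Hist1h2be and Gm11398 on the same strand and 68.0% of its 50-base stretches occur in no other annotated transcript.

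Hist1h1c (H1f2; chr13:23738808-23740367, plus strand), the linker gene with the most UMIs, was 118 CPM in dividing against 122 in non-dividing KO cells and 118 against 111 in WT cells. The 4 groups lay within 111 to 122 CPM, with log2 ratios of -0.05 in KO and 0.10 in WT, in sums that pool classes in different parts. This near equality did not hold in KO after thinning. Hist1h1c was then 188 CPM (127 to 268) in dividing cells, from 30 UMIs, against 95.5 CPM (91.2 to 99.9) in non-dividing cells. In WT the thinned values were 105 CPM (65.7 to 159) in dividing, from 22 UMIs, and 96.8 CPM (92.4 to 101) in non-dividing cells. Hist1h1c supplied 86.9% of linker UMIs in non-dividing KO cells and 84.7% in non-dividing WT cells. Hist1h1t (H1f6), the testis-specific linker gene of the mouse, had 0 and 4 UMIs in dividing and non-dividing KO cells and 2 and 13 in WT cells, too few for a comparison.

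Summed core level was 958 CPM in dividing against 268 in non-dividing KO cells and 864 against 182 in WT cells, log2 ratios of 1.83 in KO and 2.24 in WT. Of 55 core members, 40 were at least 2-fold higher in dividing KO cells, where 6.41% of 18882 genes were, and 37 in dividing WT cells, where 6.94% were. These were 11 of 14 H2A genes in each library, 13 of 16 H2B genes in KO and 10 in WT, 9 of 12 H3 genes in each and 7 of 13 H4 genes in each. By family, the log2 ratio of summed levels was 3.68 in KO and 3.87 in WT for H2A, 3.96 in KO and 3.92 in WT for H3, 2.78 in KO and 2.73 in WT for H4 and 0.57 in KO and 1.00 in WT for H2B. The low H2B value came with Hist1h2bc, which held 89.9% of H2B UMIs in non-dividing KO cells and 89.5% in non-dividing WT cells. Without this gene the summed core level was 778 CPM in dividing against 81.6 in non-dividing KO cells and 717 against 70.8 in WT cells, log2 ratios of 3.24 in KO and 3.32 in WT.

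Among H2A genes, Hist1h2ae (chr13:23570517-23571220, minus strand) was 136 CPM in dividing against 1.82 in non-dividing KO cells and 108 against 1.45 in WT cells, log2 ratios of 5.60 in KO and 5.47 in WT. Hist1h2ap was 45.6 CPM in dividing against 0.453 in non-dividing KO cells and 47.1 against 0.675 in WT cells, but 93.1% of its 50-base stretches are shared with Hist1h2ao, so its counts may include molecules of that gene. Hist1h2ac was 7.61 CPM in dividing against 2.46 in non-dividing KO cells and 6.51 against 2.85 in WT cells. Hist3h2a (chr11:58954685-58956830, plus strand), an H2A gene outside the main cluster, was 22.3 CPM in dividing against 16.8 in non-dividing KO cells and 25.5 against 10.3 in WT cells. Its reads are less certain in origin, since it overlaps Trim17 on the same strand and 68.5% of its 50-base stretches occur in no other annotated gene. Hist1h2ae and Hist1h2ap were thus among the steepest members, while Hist3h2a passed 2-fold in WT and not in KO, a difference between libraries that was not tested.

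Among H2B genes, Hist1h2bc (chr13:23684199-23692908, plus strand) had the most UMIs of any member, 47017, and was 179.9 CPM in dividing against 187 in non-dividing KO cells and 147 against 111 in WT cells. Its log2 ratios were -0.05 in KO and 0.41 in WT with all classes pooled, so it stayed under 2-fold in each library. Its annotated transcript has 2 exons and a 3′ UTR of 742 bases without the hairpin. Hist3h2ba was 19.8 CPM in dividing against 13.99 in non-dividing KO cells and 12.1 against 5.77 in WT cells. Hist1h2be was 14.6 CPM in dividing against 3.08 in non-dividing KO cells and 9.70 against 2.84 in WT cells, with the same overlap with Hist1h1e as above. Hist2h2be was 1.37 CPM in dividing against 1.48 in non-dividing KO cells and 1.63 against 1.52 in WT cells, with log2 ratios of -0.07 in KO and 0.06 in WT.

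Among H3 genes, Hist1h3c (chr13:23744973-23745602, minus strand) was low outside division, at 44.3 CPM in dividing against 0.116 in non-dividing KO cells and 39.7 against 0.154 in WT cells. Its non-dividing level rests on 12 KO and 18 WT UMIs. Hist1h3e was 29.7 CPM in dividing against 1.39 in non-dividing KO cells and 19.8 against 0.828 in WT cells. Hist1h3a was 12.7 CPM in dividing against 0.858 in non-dividing KO cells and 8.00 against 0.555 in WT cells. Hist1h3d was less steep, at 4.01 CPM in dividing against 1.34 in non-dividing KO cells and 4.37 against 1.21 in WT cells. The lowest ratio of any member with at least 100 UMIs was that of Hist2h3c1 in KO (0.740 against 1.47 CPM, log2 ratio -0.51) and Hist2h3c2 in WT (0.666 against 0.726 CPM, -0.05). These rest on 7 and 9 UMIs in dividing cells. None of the 50-base stretches of Hist2h3c1 is its own, and Gm20634 overlaps it on the same strand.

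Among H4 genes, Hist1h4d (chr13:23581598-23582735, plus strand) was 131 CPM in dividing against 12.3 in non-dividing KO cells and 153 against 16.4 in WT cells. Hist1h4i was 47.2 CPM in dividing against 10.1 in non-dividing KO cells and 30.7 against 7.70 in WT cells. Hist1h4h was 13.2 CPM in dividing against 3.40 in non-dividing KO cells and 19.99 against 3.84 in WT cells. Hist4h4, the H4 gene on chromosome 6, was 2.11 CPM in dividing against 1.43 in non-dividing KO cells and 2.15 against 1.84 in WT cells. The first 3 were at least 2-fold higher in dividing cells of each library, and Hist4h4 was not in either, with log2 ratios of 0.36 in KO and 0.15 in WT. In all, 16 members were not called 2-fold higher in either library with 1 CPM added, namely the linker genes Hist1h1c and Hist1h1t and 14 core genes. Among these were 6 of the 13 H4 genes (Hist1h4f, Hist1h4j, Hist1h4m, Hist1h4n, Hist2h4 and Hist4h4), and 3 H2B genes (Hist1h2bc, Hist2h2be and Hist3h2ba). The H3 genes Hist1h3h, Hist2h3c1 and Hist2h3c2 and the H2A genes Hist1h2ad and Hist2h2ab completed them. For those far below 1 CPM the added 1 CPM shrinks the ratio, so a value under 2-fold does not show equal levels. Examples in non-dividing KO cells are Hist1h3h at 0.0385 CPM, Hist1h4n at 0.0675 and Hist1h2ad at 0.0867. With 0.1 CPM added, more members passed in each library. Sequence is widely shared in this family, and over the members the median share of 50-base stretches found in no other annotated gene was 50.5%, and 4 members (Hist1h1b, Hist1h1a, Hist1h1t and Hist2h2be) were wholly unique.

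The annotated 3′ ends were set beside these ratios. A poly(A) signal (AATAAA within 60 bases of the annotated end) was present in 13 members and absent in 48. Of the 13 members with it, 4 were at least 2-fold higher in dividing KO cells and 4 in dividing WT cells, with 3 in both (Hist1h2ae, Hist1h4a and Hist1h2br) and with median log2 ratios of 0.47 in KO and 0.71 in WT. Of the 48 without it, 40 were higher in KO and 37 in WT, with medians of 2.24 and 2.13. Over all genes, 6.41% were at least 2-fold higher in KO and 6.94% in WT. Hist1h1c, Hist3h2a, Hist3h2ba, Hist4h4 and Hist2h2be carry the signal and were under 2-fold in at least 1 library, while Hist1h2ae carries it too and had a log2 ratio above 5 in each library. Hist1h2bc, also under 2-fold, does not carry it in its annotated transcript. The grouping was made with earlier results known and is a description.

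**Figure D2:**
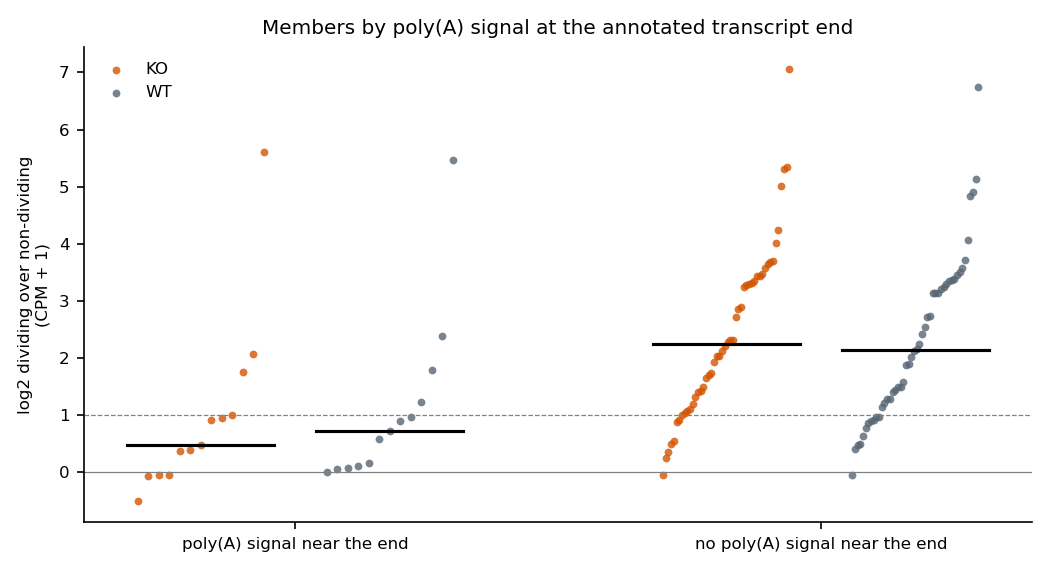
Log2 ratio of dividing over non-dividing cells (CPM + 1) for each member, split by whether AATAAA lies within 60 bases of the annotated transcript end (left, 13 members) or does not (right, 48 members). Points are members in the KO (orange) and WT (grey) libraries, black bars are medians (0.47 and 0.71 on the left, 2.24 and 2.13 on the right), and the dashed line is 2-fold.

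Dividing cells were then ordered by the share of S phase genes among their S phase plus G2/M UMIs. The share was above 2/3 in 110 KO and 131 WT cells, between 1/3 and 2/3 in 143 and 160, and under 1/3 in 87 and 120. Within 5 percentage points of a boundary were 16, 36 and 16 of the KO cells and 27, 51 and 14 of the WT cells, and bins are ranges, not cell types. The bins pool dividing cells of all classes, and whether they differ in class was not tested. Median depth rose from high to low S share, at 22032, 24742 and 29102 UMIs in KO and 27108, 32836.5 and 35754.5 in WT. Linker level was 644, 890.2 and 339 CPM from high to low S share in KO and 647, 1137 and 520.5 CPM in WT. The middle bin was thus the highest and the low S share bin the lowest in each library. Core level was 839.9, 1209.8 and 684 CPM in KO and 668, 1130.2 and 689.6 CPM in WT, with the middle bin again highest.

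Hist1h1b followed this order, at 333, 452 and 124 CPM in KO and 394, 714 and 254 CPM in WT. Hist1h1e was 158, 245 and 89.5 CPM in KO and 104, 215 and 99.7 CPM in WT. Hist1h3c was 42.4, 64.7 and 15.4 CPM in KO and 29.6, 56.2 and 26.9 CPM in WT. Hist1h2bc had another order, at 121, 156 and 272 CPM in KO and 109, 134 and 201 CPM in WT, highest in the low S share bin of each library. Its level also varied widely between classes, and the part of class in this order was not tested. Hist1h1c was 99.2, 133 and 111 CPM in KO and 103, 116 and 136 CPM in WT, with no common order.

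**Figure D3:**
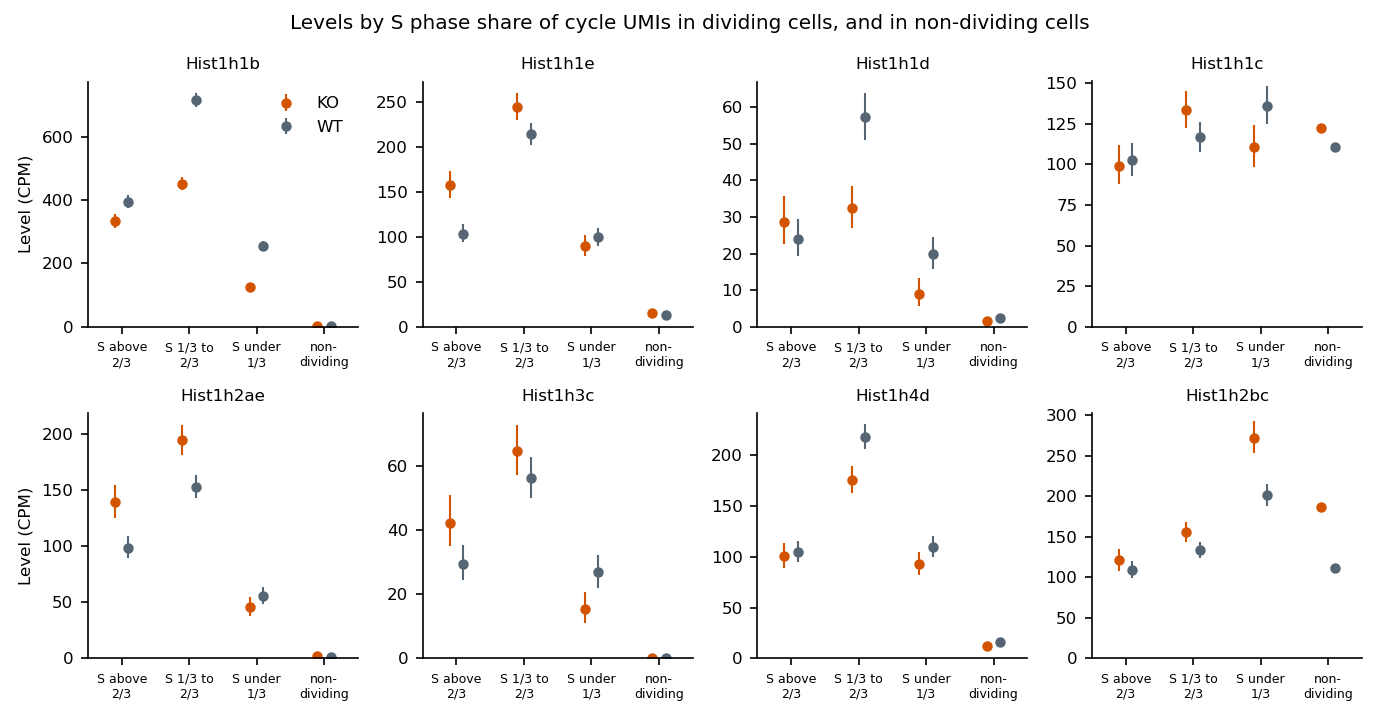
Level (CPM, linear axes from 0) of 4 linker and 4 core genes in dividing cells split by the S phase share of their cycle UMIs, from high (left) to low, and in non-dividing cells (right). Points are libraries (KO orange, WT grey) and bars exact Poisson 95% intervals, which cover counting error only. Hist1h1b, Hist1h1e, Hist1h2ae, Hist1h3c and Hist1h4d peak in the middle bin in each library, and Hist1h2bc is lowest among dividing cells at high S share. All classes are pooled in each bin.

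Linker genes supplied 40.9% of members' UMIs in dividing KO cells (exact interval 40.2 to 41.7) and 48.4% in dividing WT cells (47.7 to 49.03). In non-dividing cells the share was 34.4% in KO and 41.9% in WT. With all classes pooled, the share was thus larger in dividing cells of each library, and smaller in KO than in WT in each kind of cell. Basal cells, with 11 KO and 14 WT dividing cells, had a smaller share in dividing cells. Their linker and core levels were 279 and 422 CPM in dividing and 99.4 and 99.5 in non-dividing KO cells. In WT they were 405 and 454 CPM in dividing and 118 and 93.7 in non-dividing cells. KO B cells also had a smaller share in dividing cells, with 889 and 1367 CPM in dividing and 165 and 214 in non-dividing cells. So did WT macrophages, with 177 and 227 CPM in dividing and 111 and 130 in non-dividing cells. WT B cells and KO macrophages went the other way. KO vascular endothelial cells had a slightly smaller share, from 4 dividing cells. Hormone-sensing luminal cells, luminal progenitors, dendritic cells and T cells followed the pooled direction in each library. The larger pooled share in dividing cells also depended on how dividing cells were defined. With G2/M genes as the definition, the KO shares were 36.5% (35.95 to 37.1) in dividing and 36.03% (35.4 to 36.6) in non-dividing cells, with overlapping intervals, and the WT shares were 44.96% and 43.7%. In the low S share bin of the dividing cells it was 33.1% (31.3 to 34.9) in KO and 43.01% (41.6 to 44.4) in WT. These intervals overlap those of the non-dividing share, 33.98 to 34.9 in KO and 41.4 to 42.4 in WT. Hist1h1c and Hist1h2bc together set most of the non-dividing share, being 29.9% and 45.6% of members' UMIs in KO and 35.5% each in WT.

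Within the 5 classes that had at least 20 dividing cells in each library, members were again higher in dividing cells. Within a class the dividing and non-dividing cells came in different parts from its clusters. The T cell cluster led by Ctla4, Tnfrsf4 and Foxp3 held 31 of 51 KO and 13 of 24 WT dividing T cells, against 65 of 604 KO and 22 of 237 WT non-dividing ones. The dendritic cluster led by Cd209a, Lyz1 and Timd4 held 36 of 40 KO and 29 of 39 WT dividing dendritic cells, against 152 of 278 KO and 113 of 197 WT non-dividing ones. The T cell and dendritic values below therefore compare different mixtures of clusters, while hormone-sensing luminal cells and macrophages each came from 1 cluster. In T cells 51 members were at least 2-fold higher in KO, where 8.99% of genes were, and 45 in WT, where 17.4% were. In dendritic cells there were 36 in KO (10.6% of genes) and 29 in WT (6.67%). In hormone-sensing luminal cells there were 36 in KO (3.86%) and 35 in WT (4.46%), and in luminal progenitors 37 in KO (3.82%) and 42 in WT (4.78%). In macrophages there were 38 in KO (8.15%) and 24 in WT (8.08%). The linker genes called were 4 of 6 in every class and library.

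Hist1h1b was steep in each class. In T cells it was 577 CPM in dividing against 3.22 in non-dividing KO cells and 610.1 against 2.31 in WT. In hormone-sensing luminal cells it was 336 against 1.13 in KO and 498 against 1.87 in WT. The ratio was the smallest in macrophages, where log2 was 4.74 in KO, and in dendritic cells, where it was 4.85 in WT.

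Hist1h1c and Hist1h2bc were lower in dividing than in non-dividing hormone-sensing luminal cells. Hist1h1c was 153 against 288 CPM in KO and 197 against 270.4 in WT. Hist1h2bc was 371 against 523 CPM in KO and 291 against 347 in WT. In T cells Hist1h1c was higher in dividing KO cells (88.9 against 46.96 CPM) with a smaller gap in WT cells (89.2 against 87.1 CPM). The direction thus differed between classes for Hist1h1c, where the T cell value compares different clusters, with log2 ratios from -0.91 in hormone-sensing luminal to 0.91 in T cells of KO, and the difference was not tested.

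Among non-dividing cells, clustered histone level varied widely between the 10 classes with at least 100 cells in each library. Hormone-sensing luminal cells, which carry estrogen and progesterone receptors, were the highest, with a linker level of 312 CPM in KO and 301 in WT and a core level of 696 and 515 CPM. Luminal progenitors came next, at 227 and 203 CPM for linker and 417 and 285 for core genes. Fibroblasts were the lowest in each library, at 50.96 and 48.9 CPM for linker and 81.9 and 65.4 for core genes. B cells followed the luminal classes for linker genes at 165 and 161 CPM, with a median depth of 3001.5 and 3109 UMIs. In such shallow cells, dividing cells may be missed more often and counted as non-dividing, which was not tested. Depth differed between the classes as well, with medians of 16607 UMIs in KO and 19219 in WT hormone-sensing luminal cells against 8464.5 and 10964 in fibroblasts. With every cell thinned to 2000 UMIs, the log2 ratio of hormone-sensing luminal cells over fibroblasts was 2.59 in KO and 2.57 in WT for linker genes, against 2.59 and 2.60 unthinned. For core genes it was 3.27 in KO and 3.01 in WT, against 3.07 and 2.96 unthinned. The order of the other classes was not thinned.

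**Figure D4:**
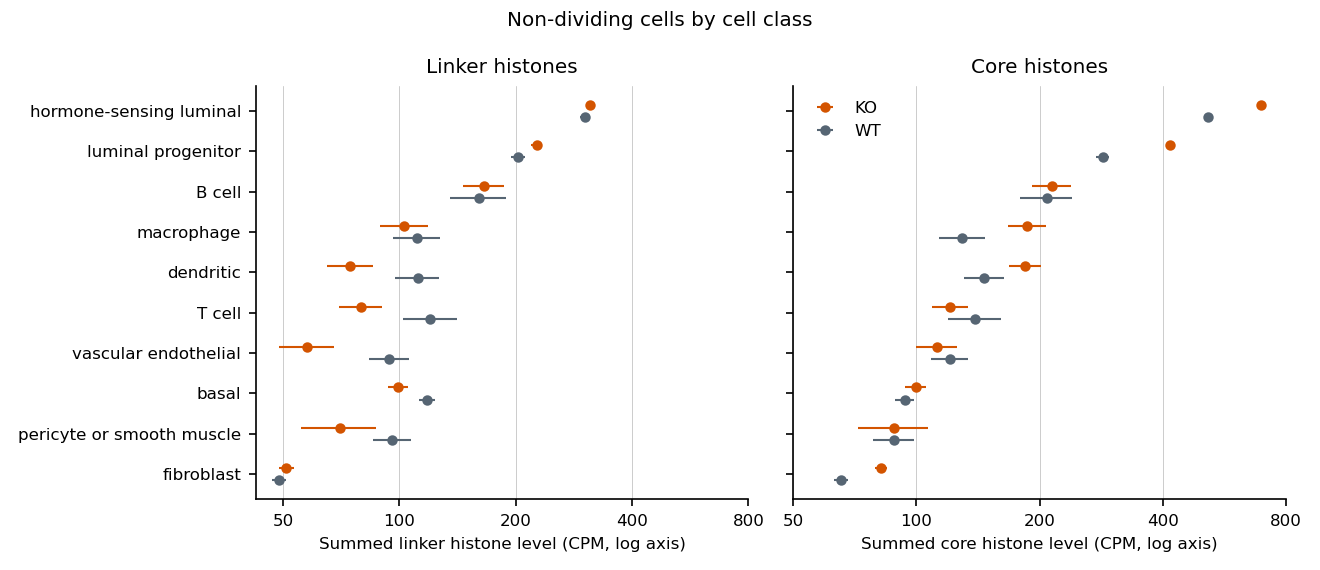
Summed level of linker genes (left) and core genes (right) in non-dividing cells of the 10 classes compared, as CPM on log axes, with KO (orange) above WT (grey) in each row and exact Poisson 95% intervals that cover counting error only. Classes are ordered by core level in KO, from hormone-sensing luminal cells at 696 CPM to fibroblasts at 81.9 CPM.

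Hist1h1c and Hist1h2bc, the members with the most UMIs, were also highest in hormone-sensing luminal cells. Hist1h1c ranged from 43.3 CPM in KO and 37.9 in WT fibroblasts to 288 and 270.4 in hormone-sensing luminal cells. Hist1h2bc was 523 CPM in KO and 347 in WT hormone-sensing luminal cells and 21.6 and 20.05 in T cells. Hist3h2ba was 45.3 and 24.6 CPM in hormone-sensing luminal cells and 0.207 and 0.191 in fibroblasts, where each value rests on 8 UMIs. Hist1h1e had a different order, being highest in B cells at 54.7 CPM in KO and 39.9 in WT, with luminal progenitors next at 31.1 and 26.4. Without Hist1h2bc, the core level of hormone-sensing luminal cells was 173 CPM in KO and 168 in WT, against 165 and 139.6 in B cells. Without Hist1h1c the linker order changed, and B cells were highest at 66.2 CPM in KO and 62.03 in WT. The limit given above for shallow cells applies to this value, and its part was not tested. Luminal progenitors followed at 37.2 and 36.4 CPM, and T cells had 32.5 and 33.2. Hormone-sensing luminal cells, at 24.2 and 30.9 CPM, lay below B cells, luminal progenitors and T cells in each library. Dendritic cells had 17.7 CPM in KO and 35.6 in WT, so they lay below hormone-sensing luminal cells in KO and above them in WT.

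Between KO and WT, few members were 2-fold apart. Scaling by TMM factors instead of total UMIs would shift every log2 ratio of KO over WT by 0.12 in dividing and 0.06 in non-dividing cells, and every ratio of dividing over non-dividing cells by -0.05 in KO and -0.12 in WT. Over all cells 0 of 61 members were at least 2-fold higher or lower in KO, where 0.27% of 18882 genes were higher and 1.16% lower. In dividing cells 0 were higher (0.81% of genes) and 1 was lower (3.31% of genes), Hist2h2aa1, at 8.45 CPM in KO against 19.9 in WT (log2 ratio -1.15). It shares 89.2% of its 50-base stretches with Hist2h2aa2 and overlaps Gm20634, so its reads may be split between copies. In non-dividing cells 1 was higher (0.318% of genes) and 0 were lower (1.22%). That gene was Hist3h2ba, at 13.99 CPM in KO against 5.77 in WT (log2 ratio 1.15, ratio interval 2.21 to 2.66). This value pools classes in different parts. In the 7 classes with at least 20 UMIs of the gene, its log2 ratio ran from -0.10 in T cells to 1.64 in B cells. The highest ratio in dividing cells was that of Hist1h2ag, at 6.34 against 2.89 CPM (log2 ratio 0.92), from 60 and 39 UMIs. After thinning, where the dividing cells number 80 in KO and 105 in WT, 20 members were 2-fold apart in dividing cells and 0 in non-dividing cells. No share over all genes is given for thinned counts, so this count of 20 is not set against other genes. Many of these 20 rest on few UMIs, such as Hist1h1a with 12 in KO and 4 in WT and Hist2h2aa1 with 3 in KO and 10 in WT.

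Summed linker level gave no steady direction between the libraries. It was 664 CPM in KO and 809 in WT dividing cells, a log2 ratio of -0.29 that became 0.12 after thinning, and in non-dividing cells the ratio was 0.11, against -0.03 after thinning and -0.11 without Hist1h1c. Summed core level was 958 against 864 CPM in dividing cells (log2 ratio 0.15) and 268 against 182 in non-dividing cells (0.56). Without Hist1h2bc the non-dividing ratio was 0.20. Hist1h2bc itself was 187 CPM in KO and 111 in WT non-dividing cells, a ratio of 1.68 with an interval of 1.65 to 1.72. These sums pool classes in different parts. Hormone-sensing luminal cells were 1025 of 9362 non-dividing KO and 759 of 9277 WT cells, and luminal progenitors 751 and 480. Within the 10 classes compared, the log2 core ratio ran from -0.20 in T cells to 0.55 in luminal progenitors, below the pooled value in each. The part of class in the pooled ratios was not tested.

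Hist1h1b was lower in KO, at 325 against 483 CPM in dividing cells (log2 ratio -0.57) and 1.43 against 3.49 in non-dividing cells (-0.89). After thinning the dividing values were 675 against 824 CPM, from 108 and 173 UMIs, and their counting intervals overlapped. In non-dividing cells they were 4.94 CPM (4.00 to 6.03) in KO against 6.52 CPM (5.41 to 7.79) in WT, again with overlapping intervals and a smaller gap than unthinned. Dividing cells from different classes enter the 2 sums in different parts, and an unnamed cluster, led by Lbhd2, Serpinb11 and Shisa8, held 12.1% of KO and 28.4% of WT Hist1h1b UMIs. Without that cluster, an alternative chosen after seeing the data, the log2 linker ratio in dividing cells was -0.18. Hist1h1d was 24.6 CPM in KO against 36.3 in WT dividing cells, but the direction turned after thinning, to 68.8 CPM in KO against 47.6 in WT, from 11 and 10 UMIs. Hist1h1e was higher in KO, at 176 against 148 CPM in dividing cells.

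Class by class, the non-dividing cells gave the following directions, all from the same pair of libraries, so that classes are not replicates. Hist1h2bc was higher in KO in 9 of 10 classes, with the ratio's interval above 1 in 7, from -0.48 in B cells to 0.93 in macrophages on the log2 scale. Hist3h2a was higher in KO in 10 of 10, with the interval above 1 in 5. Hist1h4d was lower in KO in 9 of 10, with the interval below 1 in 6, and was 19.4 against 31.4 CPM in hormone-sensing luminal cells. Hist1h1b, with at least 20 UMIs in 6 classes, was lower in KO in all 6, with the interval below 1 in 4. The classes under 20 UMIs did not share this direction. Hist1h1b was higher in KO in macrophages (5.91 CPM from 11 UMIs against 1.06 from 2 in WT), T cells and pericyte or smooth muscle cells. It was lower in vascular endothelial cells, all on few UMIs. Hist1h1c was higher in 4 classes and lower in 6, from -0.88 in T cells to 0.19 in luminal progenitors. In dividing cells Hist3h2a was instead lower in KO in 4 of the 4 classes with at least 20 UMIs of it, with the interval below 1 in 1.

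**Figure D5:**
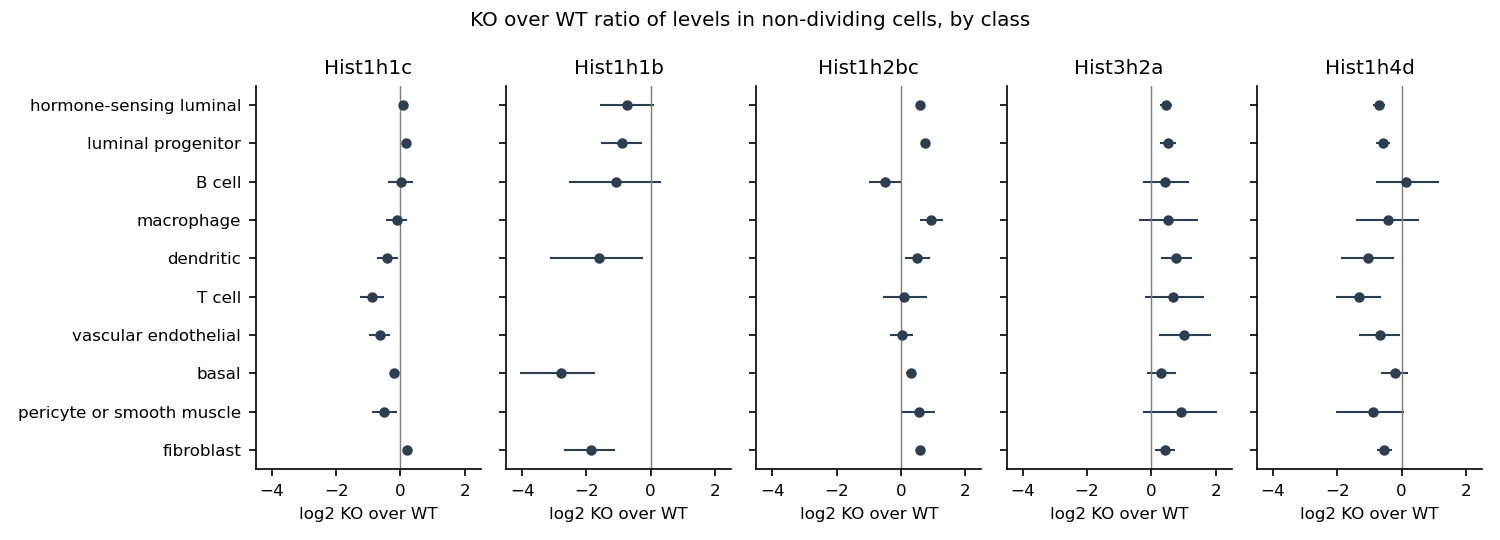
Log2 ratio of KO over WT level in non-dividing cells (CPM without added value) for 5 members in the 10 classes, with exact 95% intervals of the ratio that cover counting error only. Positive values are higher in KO, the vertical line marks equal levels, and classes with under 20 UMIs of the gene are left out. Hist3h2a lies right of the line in every class, Hist1h2bc in 9 of 10, and Hist1h1b left of it in all 6 classes shown.

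Genes that work with the clustered histones were taken from fixed lists. Beside the counts of their members higher in dividing cells stands the share over all genes, 6.41% in KO and 6.94% in WT. Of variant histones encoded elsewhere, which can be incorporated outside S phase, 6 of 11 in KO and 6 of 11 in WT were at least 2-fold higher in dividing cells. The steepest was H2afx (249 against 24.5 CPM, log2 ratio 3.29) in KO, a variant phosphorylated at DNA breaks, and Cenpa (257 against 17.3 CPM, log2 ratio 3.81) in WT, the centromeric H3. The least steep were H2afy2 (10.6 against 10.4 CPM, log2 ratio 0.02) in KO and H2afj (225 against 199 CPM, log2 ratio 0.18) in WT. Of histone chaperones, 8 of 13 in KO and 6 of 13 in WT were higher. Asf1b, which hands H3 and H4 to the assembly machinery, was the steepest, at 29.9 against 0.848 CPM in KO and 21.8 against 0.487 in WT, and Daxx the least.

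Of histone mRNA processing and turnover genes, 3 of 12 in KO and 0 of 12 in WT were higher, the WT count being near the share over all genes. Eri1, an exonuclease that trims histone mRNA, was the steepest, at 53.4 against 22.3 CPM in KO and 43.98 against 23.2 in WT, and Upf1 the least, with log2 ratios of -0.04 and -0.10. All 18 S phase and all 17 G2/M list genes were higher in each library, from Pcna (1.73 in KO and 1.12 in WT) to Pclaf (7.32 and 6.90) in the S phase list and from Ccnf to Birc5 in KO and Ube2c in WT in the G2/M list. The lists thus differed in how many genes passed 2-fold, from every cycle gene to few of the processing genes.

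Between KO and WT, 0 genes of the chaperone, processing and S phase lists were 2-fold apart over all, dividing or non-dividing cells. Of all genes, 0.27% were higher and 1.16% lower in KO over all cells. In dividing cells 0.81% were higher and 3.31% lower, and in non-dividing cells 0.318% and 1.22%. In dividing cells 1 of 11 variant histones was lower in KO (3.31% of all genes), H2afy2 (10.6 against 23.8 CPM), and the highest was H2afz (2970.4 against 2018 CPM). In non-dividing cells 1 of 17 G2/M genes was lower in KO (1.22% of all genes), Cenpf (4.68 against 12.1 CPM). Each of these counts is of 1 gene.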

How the data were processed

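Single-cell counts of 1 KO and 1 WT library were used. The deposited values are UMI counts per gene and cell barcode, and the authors' processing named the build mm10 with Cell Ranger (5.0.1) as well as Seurat (3.2.0), per the submitters' processing notes. The authors' filters on barcodes are not given in the sources used here. Cells were kept with at least 500 genes, 1000 UMIs and at most 10% mitochondrial UMIs, and Scrublet doublets (scanpy 1.11.5) were removed. Clusters (leidenalg 0.10.2, resolution 1, 20 neighbours, 30 components, 2000 variable genes) were built without the clustered histone and cell-cycle genes and named from marker lists. Classes were compared where each library had at least 100 cells, and dividing cells of a class where each had at least 20. UMIs were summed per group and divided by the group's total. A member was called at 2-fold or more on the scale of log2 of CPM with 1 CPM added, and genes were compared over all 18882 with at least 20 UMIs in both libraries together. Poisson, Clopper-Pearson and conditional ratio intervals (95%) cover counting error only, and there was no replicate. The procedure was tested on simulated data. Members named in the text were all linker genes, the 4 genes with the most UMIs in each core family, and in each comparison the members of at least 100 UMIs with the highest and the lowest ratio. Of the pathway lists, the genes with the highest and the lowest ratio were named. Genes outside this rule were named after their values were seen. The members and lists were chosen with earlier results of these data known. TMM factors came from edgeR 4.0.16. Gene ends came from GENCODE M21 and promoters from RefSeq GRCm38.p6.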

Additional observations from a re-analysis of the deposited data

Results flagged for a closer look

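In dividing cells the ratio of KO over WT differed in direction between classes, a difference that was not tested. Summed linker level was 439 CPM in KO and 177 in WT macrophages (log2 ratio 1.30), and 519 in KO and 769 in WT luminal progenitors (-0.57). Hist1h1b was 183 CPM in KO and 59.6 in WT macrophages (1.61), and 197 in KO and 419.8 in WT luminal progenitors (-1.08). The macrophage values rest on 21 KO and 20 WT dividing cells, where 5 cells supplied 83.7% (KO) and 88.1% (WT) of Hist1h1b UMIs. In luminal progenitors, with 49 KO and 40 WT dividing cells, 5 cells held 41.7% and 41.8%.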

How the results depend on the processing

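Values by setting are log2 ratios, percentages of cells or UMIs, or counts of members. Of the alternatives tried, 4 values changed sign and 100 moved by more than their counting interval or, for counts, by over 1.5 times, and 164 did not. The number of members higher in dividing cells still varied, from 27 (5 CPM added) to 52 (0.1 CPM added) in KO and from 27 to 54 under the same settings in WT. It was 32 in KO and 34 in WT with either marker, 34 and 36 after thinning, and 37 in each with G2/M genes. No share over all genes is given for these settings, so the counts are not set against other genes. The 4 that changed sign were all ratios of summed linker level between KO and WT, under thinning, under the mean per cell and without Hist1h1c, and the cause was not tested. No paired analysis was possible because each genotype had 1 library. The alternatives that leave out a cluster, or Hist1h1c or Hist1h2bc, were chosen after seeing the data. With TMM factors, linker dividing over non-dividing in KO was 2.18, core dividing over non-dividing in KO was 1.79 and linker dividing over non-dividing in WT was 2.51. Core dividing over non-dividing in WT was 2.13, linker KO over WT in dividing cells was -0.16 and core KO over WT in dividing cells was 0.27. Linker KO over WT in non-dividing cells was 0.17 and core KO over WT in non-dividing cells was 0.62. With all deposited barcodes, core dividing over non-dividing in KO was 1.78, linker hormone-sensing over fibroblast in KO was 2.50 and core hormone-sensing over fibroblast in KO was 2.99. Linker dividing over non-dividing in WT was 2.58, core dividing over non-dividing in WT was 2.20 and linker hormone-sensing over fibroblast in WT was 2.47. Core hormone-sensing over fibroblast in WT was 2.84. With at most 5% mitochondrial UMIs, core dividing over non-dividing in WT was 2.29 and core KO over WT in non-dividing cells was 0.60. With cells classed individually, linker hormone-sensing over fibroblast in KO was 2.54, linker hormone-sensing over fibroblast in WT was 2.40 and core hormone-sensing over fibroblast in WT was 2.84. With dividing cells defined by 2 UMIs of each marker, linker dividing over non-dividing in KO was 2.39, core dividing over non-dividing in KO was 1.95 and dividing share in KO was 2.60%. Linker share in KO dividing cells was 41.8%, linker dividing over non-dividing in WT was 2.87 and core dividing over non-dividing in WT was 2.45. Dividing share in WT was 2.86%, linker share in WT dividing cells was 49.03% and linker KO over WT in dividing cells was -0.37. Core KO over WT in dividing cells was 0.052. With dividing cells defined by G2/M genes, linker dividing over non-dividing in KO was 1.76, core dividing over non-dividing in KO was 1.74 and dividing share in KO was 8.99%. Linker share in KO dividing cells was 36.5%, linker share in KO non-dividing cells was 36.03% and linker dividing over non-dividing in WT was 2.06. Core dividing over non-dividing in WT was 1.99, dividing share in WT was 10.5% and linker share in WT dividing cells was 44.96%. Linker share in WT non-dividing cells was 43.7%, core KO over WT in dividing cells was 0.26 and linker KO over WT in non-dividing cells was 0.054. Core KO over WT in non-dividing cells was 0.52. With dividing cells defined by either marker, linker dividing over non-dividing in KO was 1.37, core dividing over non-dividing in KO was 1.17 and dividing share in KO was 10.6%. Linker share in KO dividing cells was 37.5%, linker dividing over non-dividing in WT was 1.79 and core dividing over non-dividing in WT was 1.56. Dividing share in WT was 11.8% and linker share in WT dividing cells was 45.9%. With doublets kept, core dividing over non-dividing in KO was 1.78, linker hormone-sensing over fibroblast in KO was 2.53 and core hormone-sensing over fibroblast in KO was 3.01. Linker dividing over non-dividing in WT was 2.58, core dividing over non-dividing in WT was 2.20 and linker hormone-sensing over fibroblast in WT was 2.52. Core hormone-sensing over fibroblast in WT was 2.88. With CPM per cell averaged over cells, linker dividing over non-dividing in KO was 2.83, core dividing over non-dividing in KO was 2.48 and linker dividing over non-dividing in WT was 2.90. Core dividing over non-dividing in WT was 2.55, linker KO over WT in dividing cells was -0.14 and core KO over WT in dividing cells was 0.28. Linker KO over WT in non-dividing cells was -0.067 and core KO over WT in non-dividing cells was 0.34. Among members with at least 100 UMIs, core dividing over non-dividing in KO was 1.80. With 0.1 CPM added, members 2-fold apart between KO and WT dividing cells numbered 4 and members 2-fold apart between KO and WT non-dividing cells numbered 3. With 5 CPM added, members higher in dividing KO cells numbered 27, linker dividing over non-dividing in WT was 2.58 and members higher in dividing WT cells numbered 27. Members 2-fold apart between KO and WT dividing cells numbered 0 and members 2-fold apart between KO and WT non-dividing cells numbered 0. After thinning to 2000 UMIs, linker dividing over non-dividing in KO was 3.50, core dividing over non-dividing in KO was 2.88 and dividing share in KO was 0.792%. Linker share in KO dividing cells was 45.99%, linker share in KO non-dividing cells was 35.5% and core hormone-sensing over fibroblast in KO was 3.27. Linker dividing over non-dividing in WT was 3.36, core dividing over non-dividing in WT was 2.81 and dividing share in WT was 1.08%. Linker share in WT dividing cells was 52.8%, linker share in WT non-dividing cells was 43.3% and linker KO over WT in dividing cells was 0.12. Core KO over WT in dividing cells was 0.51, members 2-fold apart between KO and WT dividing cells numbered 20 and linker KO over WT in non-dividing cells was -0.026. Core KO over WT in non-dividing cells was 0.45 and members 2-fold apart between KO and WT non-dividing cells numbered 0. Without Hist1h1c, linker dividing over non-dividing in KO was 4.81, linker dividing over non-dividing in WT was 5.04 and linker KO over WT in dividing cells was -0.34. Linker KO over WT in non-dividing cells was -0.11. Without Hist1h2bc, core dividing over non-dividing in KO was 3.24, core dividing over non-dividing in WT was 3.32 and core KO over WT in non-dividing cells was 0.20. Without the unnamed cluster led by Lbhd2, linker KO over WT in dividing cells was -0.18 and core KO over WT in dividing cells was 0.24. Without clusters of nearly 1 library, linker dividing over non-dividing in WT was 2.59. Without the 5 cells with the most clustered histone UMIs, linker dividing over non-dividing in WT was 2.58, core dividing over non-dividing in WT was 2.22 and members 2-fold apart between KO and WT dividing cells numbered 2. With 1 library per genotype, depth limits the members of few UMIs, which count in the totals of members 2-fold apart. After thinning, 80 KO and 105 WT dividing cells remained, and many of the 20 members then 2-fold apart rest on few UMIs, such as 12 in KO and 4 in WT for Hist1h1a. These 20 also have no share over all genes beside them.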

Other observations

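Hist1h1b was also present in clusters that stayed unnamed. The cluster led by Lbhd2, Serpinb11 and Shisa8 had 211 KO and 337 WT cells, of which 43 and 86 were dividing, and Hist1h1b was 85.1 CPM in KO and 242.5 CPM in WT cells. A cluster with a median of 1621 UMIs, 40 KO and 347 WT cells, had Pmp22, Cdk1, Pclaf and Hist1h1b among its leading genes, with 0 UMIs of Hist1h1b in KO and 125 CPM in WT. A cluster led by Cenpe, Prc1 and Cenpf had 30 KO and 103 WT cells, and Hist1h1b was 201 CPM in KO and 74.0 CPM in WT cells. Keratinocyte-like cells, found in WT alone, had 83.7 CPM.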
